A study of Mus musculus with 22 samples.

Results

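The Bcl2 family of apoptosis regulators was followed through 22 colon tumours of mice, as 8 genes chosen by name. The family was represented by the guardians Bcl2, Bcl2l1 and Mcl1, the pore formers Bax and Bak1, and the BH3-only genes Bbc3, Pmaip1 and Bcl2l11. Each gene was read from the probe set annotated to it, with the highest mean where there were several. Of the 8 genes, 7 had a probe set under their name, 1 each, among 19505 named genes and 22203 probe sets in all, and Bax was not analysed here. The tumours were induced in male mice of the inbred FVB/N strain with azoxymethane, which damages DNA in the colon lining of rodents. Fat supplied 10% of the calories in the diet of the 6 control mice, and 60% in that of the 5 obese mice. The 6 obese sulindac mice ate as the obese mice did and received sulindac, an inhibitor of cyclooxygenases. The 5 formerly obese mice were switched to low-fat food after a period of high-fat feeding. All 22 mice carried azoxymethane tumours, so no normal colon enters any comparison. Doses and timing of the carcinogen, the drug and the diet switch were not used here. Names of mice follow the titles of the samples, among them 1 obese sulindac mouse called Mouse_X.

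Proteins of the Bcl2 family decide whether the outer membrane of the mitochondrion stays closed. Guardians hold the pore formers in check, and BH3-only proteins, which are made or released under stress, bind the guardians or act on the pore formers directly. When Bax or Bak1 opens the membrane, cytochrome c escapes and caspases are activated. In the colon the family sets how readily epithelial cells die after DNA damage, and immune cells in the tissue depend on the same proteins for their survival. Much of the control of these proteins, such as the rapid turnover of Mcl1, takes place after transcription and is not seen in RNA.

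The results turn on 4 of these genes, in 2 opposed pairs that passed the threshold, Bcl2 with Pmaip1 and Bak1 with Bcl2l11. The other pairs among these 4 genes did not pass and are given below. The 250 bases before the annotated start of Bcl2, Bcl2l11 and Bak1 are shown because each of these genes belongs to 1 of the 2 pairs that passed. The sequences are from RefSeq on GRCm38.p6, read 5′ to 3′ on the strand of the gene. Promoters of 6 of the 8 genes were used. The windows are chr1:106714291-106714540 on the minus strand for Bcl2, chr2:128125788-128126037 on the plus strand for the most upstream of the 2 annotated starts of Bcl2l11, and chr17:27028628-27028877 on the minus strand for Bak1. Capitals mark matches to any of 8 motifs searched on both strands.
Bcl2: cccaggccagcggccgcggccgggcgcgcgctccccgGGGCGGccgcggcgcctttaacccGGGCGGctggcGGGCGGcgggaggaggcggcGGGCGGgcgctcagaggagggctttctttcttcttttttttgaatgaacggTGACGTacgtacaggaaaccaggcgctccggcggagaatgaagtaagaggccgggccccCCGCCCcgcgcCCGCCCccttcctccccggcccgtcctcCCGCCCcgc
Bcl2l11: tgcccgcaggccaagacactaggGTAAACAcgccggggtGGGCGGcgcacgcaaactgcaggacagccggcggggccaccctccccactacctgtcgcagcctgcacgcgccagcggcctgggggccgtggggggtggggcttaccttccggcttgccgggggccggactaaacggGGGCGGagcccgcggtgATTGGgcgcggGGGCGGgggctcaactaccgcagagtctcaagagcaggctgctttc
Bak1: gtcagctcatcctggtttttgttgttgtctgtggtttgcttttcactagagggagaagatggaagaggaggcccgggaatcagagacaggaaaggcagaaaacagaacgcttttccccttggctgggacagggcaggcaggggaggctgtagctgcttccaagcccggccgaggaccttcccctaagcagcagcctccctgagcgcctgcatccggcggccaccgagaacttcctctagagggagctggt

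The window of Bcl2 held 7 copies of the Sp1 GC box, GGGCGG, a motif found in 32.7% of 32851 promoter windows of this length. It also held 1 core of the cAMP response element, TGACGT, which 6.5% of the windows had. The window of Bcl2l11 held 3 GC boxes, 1 CCAAT box (CCAAT, in 33.8% of windows) and 1 FOXO site (GTAAACA, in 3.2%). Bcl2l11 encodes Bim, and FOXO factors are known to switch it on when growth factors are withdrawn. The window of Bak1 held 0 of the 8 motifs, which besides those 4 were the TATA box (TATAAA, 12.4%), the E box (CACGTG, 6.0%), the gamma activated site (TTCNNNGAA, 7.0%) and the interferon response core (GAAA and GAAA with 2 bases between, 3.0%). No marked copy overlapped another in the 3 windows shown. The windows also differed in base composition. GC made up 74.8% of the window of Bcl2, 72.0% of that of Bcl2l11 and 58.4% of that of Bak1, against a median of 52.4% over all windows. The window of Bcl2 held 36 CpG dinucleotides, that of Bcl2l11 24 and that of Bak1 8, against a median of 6. A match is only a match of letters, and the arrays carry no measurement of what binds there.

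The arrays gave log2 levels, with array medians of 6.67 to 6.83. A level can be compared between tumours for 1 gene, but not between genes, because probe sets differ in how brightly they bind. In this text a level is a log2 value of 1 tumour or group, and a difference is the log2 level of the first group minus that of the second, with its standard error after ±. Of the 10 epithelial markers all were measured, and Epcam, which marks epithelium, had levels of 16.67 to 17.43 and the keratin gene Krt8 of 14.84 to 16.86 over the 22 tumours. Cdx2, which sets intestinal identity, ran from 5.92 to 13.64. Each tumour is a piece of tissue with several cell types, so fewer cells of a type and less RNA per cell cannot be told apart.

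The regimens did not separate these genes. In limma's F test over the 4 regimens the members had adjusted p-values from 0.8491 for Bak1 to 0.9957 for Bcl2l11 (Benjamini-Hochberg over all 22203 probe sets). Of those 22203 probe sets 0 had an adjusted p under 0.05 in this test. The regimens held 25.3% of the variance of Bak1, 24.5% of that of Mcl1, 20.3% for Pmaip1 and 18.9% for Bcl2l1. They held 4.3% for Bcl2, 1.7% for Bbc3 and 0.9% for Bcl2l11, and the median of all probe sets was 12.85%. The spread within a regimen was wide for some members. The pooled SD within groups was 0.83 log2 units for Pmaip1, 0.77 for Bcl2 and 0.67 for Bcl2l11, which exceeded that of 92.3%, 91.0% and 88.0% of all probe sets. Mcl1 had an SD of 0.22, higher than 9.0% of probe sets.

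**Figure D1:**
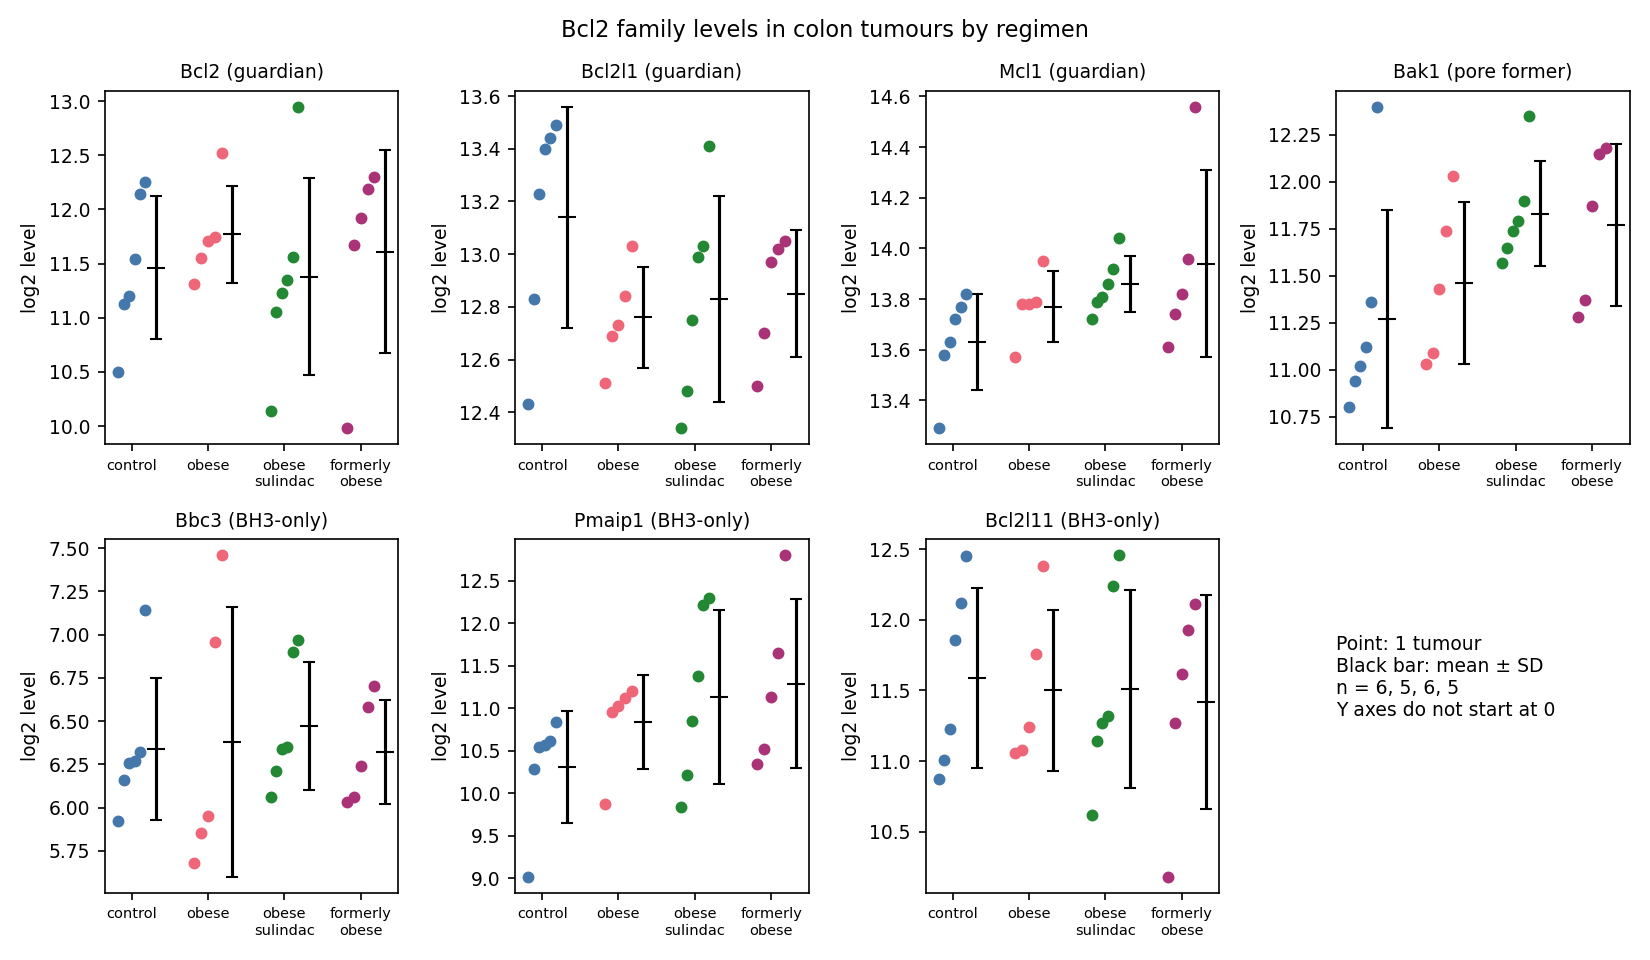
Log2 level of each of the 7 measured members (y axis, not starting at 0) in every tumour of the 4 regimens (x axis), with 1 point per tumour and black bars for the mean ± SD (n = 6 control, 5 obese, 6 obese sulindac, 5 formerly obese). The ranges of the regimens overlap for every member, and single tumours lie apart, such as the control tumour with Bak1 at 12.40.

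Among the guardians, Bcl2l1, which encodes Bcl-xL, had the lowest mean in obese tumours. Its levels in the 6 control tumours ran from 12.43 over a median of 13.32 to 13.49. In the 5 obese tumours they were 13.03 in Mouse_96, 12.51 in Mouse_101, 12.73 in Mouse_107, 12.69 in Mouse_109 and 12.84 in Mouse_113. All 5 lay inside the range of the controls, below 4 or 5 of the 6 control values. The obese mean of 12.76 ± 0.19 (SD, n = 5) was below the control mean of 13.14 ± 0.42 (SD, n = 6) by a difference of -0.38 ± 0.20 log2 units (95% interval -0.80 to 0.05, limma adjusted p = 0.9998, exact permutation p = 0.104 before adjustment). In the obese sulindac tumours Bcl2l1 ran from 12.34 over a median of 12.87 to 13.41, and in the formerly obese tumours it had a mean of 12.85 ± 0.24. Neither group differed from obese tumours beyond the spread, with differences of 0.07 ± 0.20 (95% interval -0.35 to 0.50) and 0.09 ± 0.21 (95% interval -0.35 to 0.53).

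Bcl2 itself showed no difference beyond its spread in any comparison. The control tumours ran from 10.50 over a median of 11.37 to 12.25. The obese tumours had 11.55 in Mouse_96, 11.31 in Mouse_101, 11.75 in Mouse_107, 11.71 in Mouse_109 and 12.52 in Mouse_113. With sulindac the values ran from 10.14 in Mouse_129 over a median of 11.29 to 12.95 in Mouse_X. The formerly obese tumours held 4 values close together, 11.92 in Mouse_134, 12.30 in Mouse_140, 12.19 in Mouse_146 and 11.67 in Mouse_150, and 1 far below, 9.98 in Mouse_152. The lowest and the highest Bcl2 level of the series thus came from Mouse_152 and Mouse_X, in different regimens, and all groups overlapped. The difference between obese and control tumours was 0.31 ± 0.44 (95% interval -0.60 to 1.22). That between obese sulindac and obese tumours was -0.39 ± 0.44 (95% interval -1.30 to 0.52), and that between formerly obese and obese tumours was -0.16 ± 0.46 (95% interval -1.10 to 0.79). A log2 difference of 1 would be a change of 2 times, and each of these intervals includes 1 or -1, so these tumours leave a change of that size possible in 1 direction.

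Mcl1, a short-lived guardian, had the smallest SD within groups of the 7 members and the highest mean in formerly obese tumours. Its control values ran from 13.29 over 13.68 to 13.82, and its obese sulindac values from 13.72 over 13.84 to 14.04. The obese tumours had 13.78, 13.57, 13.95, 13.78 and 13.79 in Mouse_96, Mouse_101, Mouse_107, Mouse_109 and Mouse_113. The formerly obese tumours had 14.56 in Mouse_134, 13.96 in Mouse_140, 13.61 in Mouse_146, 13.74 in Mouse_150 and 13.82 in Mouse_152. Mouse_134 was the highest of the series, and the other 4 lay within the range of the remaining tumours. Formerly obese tumours exceeded controls by 0.30 ± 0.15 (95% interval 0.00 to 0.61, limma p = 0.0494, adjusted p = 0.8957, exact permutation p = 0.0909), and by 0.15 without Mouse_134. Obese sulindac tumours exceeded controls by 0.22 ± 0.14, where the exact permutation test gave p = 0.0238 and limma p = 0.125 before adjustment, and neither passed after it (adjusted p = 0.7282 and 0.8359). Smooth muscle markers, with which Mcl1 varied among tumours with an r of 0.83 (0.57 without Mouse_134), were also higher. In obese sulindac against control tumours 9 of 9 had a higher mean, with a median difference of 0.52 (50.18% of all probe sets were higher). There 3 of 9 had a limma p under 0.05 before adjustment, as 6.63% of all probe sets did. In formerly obese against control tumours 8 of 9 had a higher mean, with a median of 0.39 (49.49% of all probe sets were higher). The mean level of these markers was 9.41 ± 1.15 (SD) in formerly obese tumours, with 11.28 in Mouse_134, and 8.99 in controls. Their part in the Mcl1 differences was not tested.

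The pore former Bak1, which sits in the mitochondrial membrane, had its lowest mean in control tumours and its highest with sulindac. In controls it was at 11.27 ± 0.58 (SD, n = 6), from 10.80 over a median of 11.07 to 12.40, the last in Mouse_30. In obese tumours it was 11.03 in Mouse_96, 11.43 in Mouse_101, 11.74 in Mouse_107, 12.03 in Mouse_109 and 11.09 in Mouse_113. In obese sulindac tumours it ran from 11.57 over 11.77 to 12.35, and in formerly obese tumours it was 11.87 in Mouse_134, 11.28 in Mouse_140, 11.37 in Mouse_146, 12.15 in Mouse_150 and 12.18 in Mouse_152. All 6 obese sulindac tumours lay above 5 of the 6 controls and below Mouse_30, so the groups overlap by that 1 tumour. The difference between obese sulindac and control tumours was 0.56 ± 0.25 (95% interval 0.05 to 1.07, limma p = 0.0337, adjusted p = 0.7435, exact permutation p = 0.0628), and 0.79 without Mouse_30. Against obese tumours the sulindac group differed by 0.37 ± 0.26 (95% interval -0.17 to 0.91), an interval that includes no difference. Formerly obese tumours had a Bak1 difference of 0.50 ± 0.26 from controls (95% interval -0.04 to 1.03) and of 0.31 ± 0.27 from obese tumours (95% interval -0.26 to 0.87). These comparisons share the control or the obese tumours and are not independent of each other. Immune markers, with which Bak1 also varied among tumours, were higher in obese sulindac than in control tumours in 7 of 8 for T and NK cells (median difference 0.26) and in 8 of 8 for macrophages and monocytes (median 0.36). Between formerly obese and control tumours 5 of 8 (median 0.07) and 3 of 8 (median -0.11) were higher. Of all probe sets, 50.18% were higher in the first of these comparisons and 49.49% in the second. The part of the immune markers in the Bak1 differences was not tested.

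Pmaip1, which encodes Noxa, a BH3-only protein that binds Mcl1 and is induced by p53, had the widest range of the family at 3.78 log2 units. The control tumours ran from 9.02 in Mouse_26 over a median of 10.56 to 10.84. The obese tumours had 10.96 in Mouse_96, 11.12 in Mouse_101, 11.20 in Mouse_107, 11.03 in Mouse_109 and 9.87 in Mouse_113. The obese sulindac tumours ran from 9.84 in Mouse_131 over 11.12 to 12.30 in Mouse_125. The formerly obese tumours had 10.52 in Mouse_134, 10.35 in Mouse_140, 11.13 in Mouse_146, 11.65 in Mouse_150 and 12.80 in Mouse_152. Of the 5 obese tumours 4 lay above every control, as did 4 of the 6 sulindac and 3 of the 5 formerly obese tumours, and each group also held tumours within the control range. The difference from controls was 0.52 ± 0.47 in obese, 0.82 ± 0.45 in obese sulindac and 0.98 ± 0.47 in formerly obese tumours. The last had a 95% interval of 0.00 to 1.95, with limma p = 0.0495, adjusted p = 0.8957 and exact permutation p = 0.0801, and the difference was 0.60 without Mouse_152. Markers of B and plasma cells had a higher mean in those tumours than in controls in 7 of 8 cases (median difference 0.35). Over all probe sets 49.49% had a higher mean. The mean level of these markers was 6.67 ± 1.28 (SD) in formerly obese tumours, with 8.94 in Mouse_152, and 6.36 in controls. Pmaip1 also varied among tumours with markers of T and NK cells and of macrophages and monocytes. In formerly obese against control tumours 5 of 8 (median 0.07) and 3 of 8 (median -0.11) of those were higher. The part of the immune markers in the Pmaip1 difference was not tested. Between formerly obese and obese tumours the Pmaip1 difference was 0.45 ± 0.49 (95% interval -0.56 to 1.47), and between obese sulindac and obese tumours 0.30 ± 0.47 (95% interval -0.68 to 1.27).

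Bcl2l11 had nearly the same mean in all regimens and a wide spread inside each. The control tumours ran from 10.87 over 11.54 to 12.45. The obese tumours had 12.38 in Mouse_96, 11.24 in Mouse_101, 11.06 in Mouse_107, 11.08 in Mouse_109 and 11.76 in Mouse_113. With sulindac the values ran from 10.62 over 11.29 to 12.46 in Mouse_X, and the formerly obese tumours had 11.27, 11.93, 12.11, 11.62 and 10.18 in Mouse_134, Mouse_140, Mouse_146, Mouse_150 and Mouse_152. The lowest level was again that of Mouse_152 and the highest that of Mouse_X, as for Bcl2. The group means were 11.59 ± 0.64 in control, 11.50 ± 0.57 in obese, 11.51 ± 0.70 in obese sulindac and 11.42 ± 0.76 in formerly obese tumours (SD). All 6 differences between regimens lay between -0.17 and 0.00, with intervals reaching from -0.96 to 0.80. Bbc3, which encodes Puma, a p53 target that binds all the guardians, had levels of 5.68 to 7.46. Its group means lay between 6.32 and 6.47, and its largest difference was -0.15 ± 0.29, between formerly obese and obese sulindac tumours.

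Over the members together, 0 of 7 passed in any of the 6 comparisons in limma. Of all 22203 probe sets 0 passed in any of them either, so this count is not particular to the members. The exact permutation test also passed 0 members. It had 252 to 924 splits of the mice, too few to pass the adjustment unless very many probe sets reach its smallest p. Its count of 0 therefore adds nothing to that of limma. Before adjustment 0 of 7 had a limma p under 0.05 in obese against control tumours, where 4.03% of all probe sets did. Likewise 0 of 7 did in formerly obese against obese tumours (5.69% of all probe sets), in obese sulindac against obese tumours (6.55%) and in formerly obese against obese sulindac tumours (6.62%). Against controls, 2 of 7 did in formerly obese tumours (Mcl1 and Pmaip1, 5.54% of all probe sets) and 1 of 7 in obese sulindac tumours (Bak1, 6.63%). The median difference over the 7 members was 0.14 in obese against control tumours, 0.09 in formerly obese against obese tumours and 0.08 in obese sulindac against obese tumours, where the median over all probe sets was -0.0043, 0.004 and 0.0093. In no comparison did a member have groups that do not overlap, which 0.383% of all probe sets had in obese against control, 0.878% in formerly obese against obese and 0.676% in obese sulindac against obese tumours. In the other 3 comparisons this share was 0.423% (formerly obese against control), 0.297% (obese sulindac against control) and 0.567% (formerly obese against obese sulindac).

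**Figure D2:**
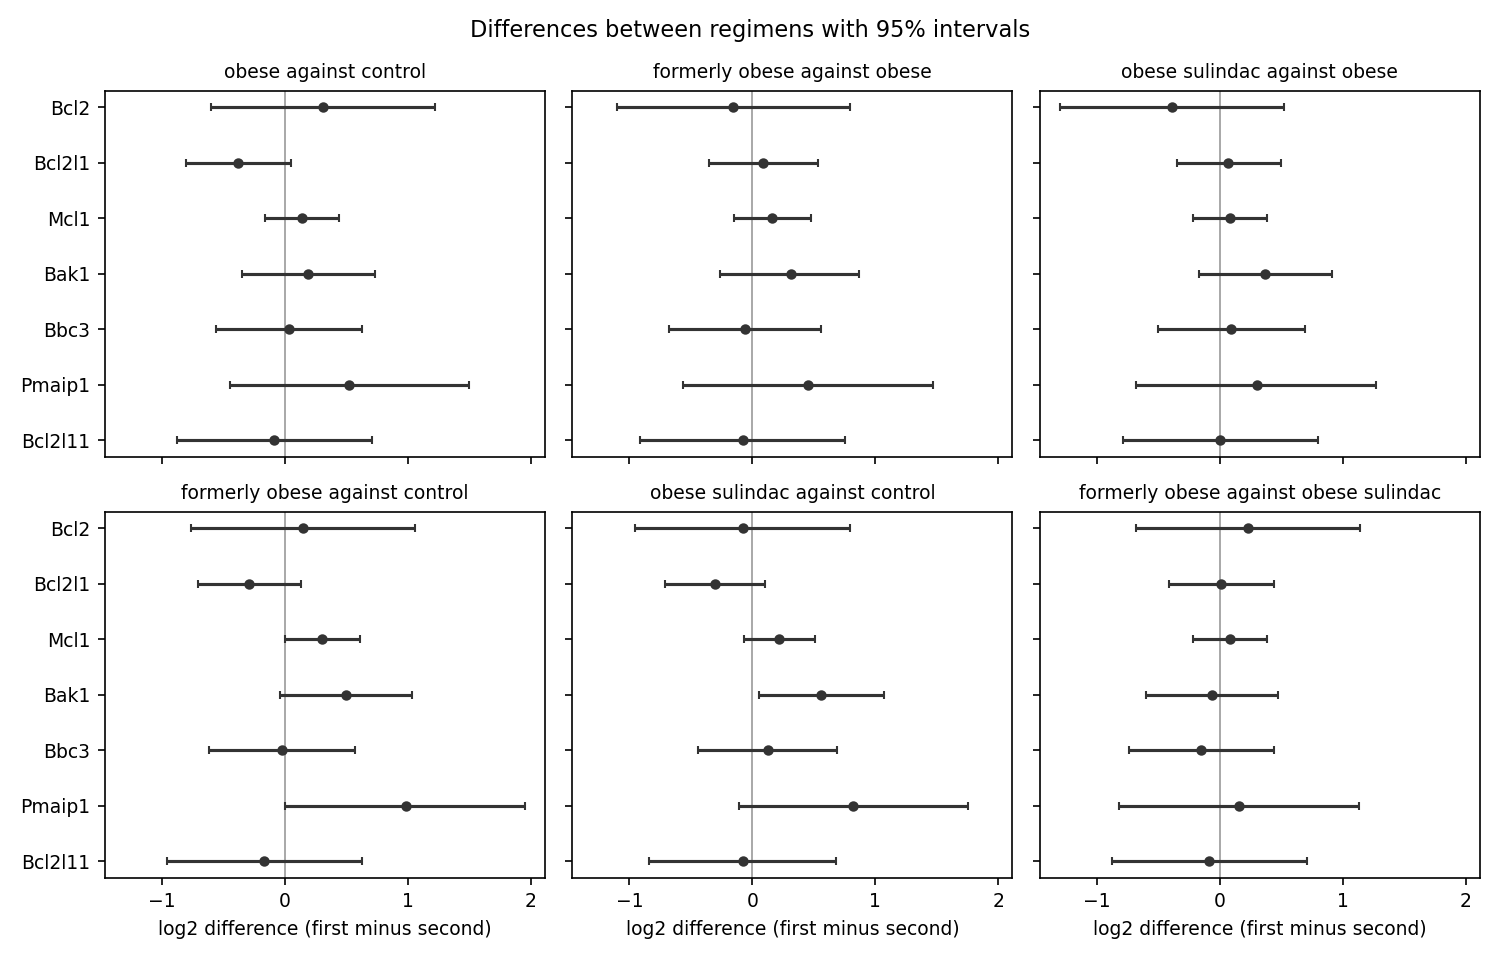
Log2 difference between regimens (x axis, first group minus second) for each of the 7 members (y axis) in the 6 comparisons, with points for limma's estimate and bars for its 95% interval. The interval lies above 0 for Bak1 in obese sulindac against control tumours (0.05 to 1.07), and starts at 0.00 for Mcl1 and Pmaip1 in formerly obese against control tumours.

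Of the 21 pairs of members, 2 passed the threshold for correlation among tumours of the same regimen (adjusted p under 0.05), and they have no gene in common. After the mean of each regimen was subtracted, Bcl2 and Pmaip1 varied in opposite directions over the 22 tumours, with a Pearson r of -0.71 (permutation p = 0.00161, adjusted p = 0.0169 over 21 pairs) and a Spearman rho of -0.75. The correlation was negative in 4 of 4 regimens, and r was -0.70 without Mouse_X and Mouse_152, the 2 tumours farthest from the median of Bcl2. Of all probe sets, 0.581% had an r with Bcl2 at or below this one, and 0.662% had such an r with Pmaip1. The tumours of 3 mice carried part of the call. Without Mouse_152 r was -0.61 (adjusted p = 0.151), without Mouse_129 it was -0.66 (adjusted p = 0.0543), and without Mouse_113 it was -0.68 (adjusted p = 0.0665). The permutations moved tumours only within their regimen.

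Bak1 and Bcl2l11 were the other pair that passed, with r = -0.66 (permutation p = 0.00093, adjusted p = 0.0169) and rho = -0.69. It too was negative in 4 of 4 regimens, and its r lay between -0.70 and -0.63 when any 1 tumour was left out, with adjusted p from 0.00693 to 0.0393. Of all probe sets, 0.698% had an r with Bak1 at or below this one, and 2% had such an r with Bcl2l11. Bcl2l11 is a BH3-only activator of Bak1, and their RNAs were thus opposed among these tumours rather than parallel. On the arrays of the controls, Mouse_30 had the highest Bak1 (12.40) and the lowest Bcl2l11 (10.87), and Mouse_26 the lowest Bak1 (10.80) and the highest Bcl2l11 (12.45).

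The remaining 19 pairs did not pass. Pmaip1 and Bcl2l11 had r = -0.60 (adjusted p = 0.0646) with a rho of -0.63 whose adjusted p was 0.0349. Bcl2 and Bcl2l11 had r = 0.58 (adjusted p = 0.0749, and r = 0.23 without Mouse_X and Mouse_152), Bcl2 and Bak1 r = -0.48 (adjusted p = 0.0956), and Bak1 and Pmaip1 r = 0.45 (adjusted p = 0.124). Each of these 4 pairs kept its sign in 4 of 4 regimens. Bcl2l1 and Mcl1 had r = 0.42 (adjusted p = 0.124), also positive in 4 of 4. Bbc3 had r between -0.24 and 0.26 with every other member. All values of 1 tumour come from the same array, so any difference between arrays enters both genes of a pair. Mouse_X had the highest upper quartile of its array, 10.35, and Mouse_152 the lowest, 10.20, and after quantile normalization r was -0.72 for Bcl2 with Pmaip1 and -0.66 for Bak1 with Bcl2l11.

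**Figure D3:**
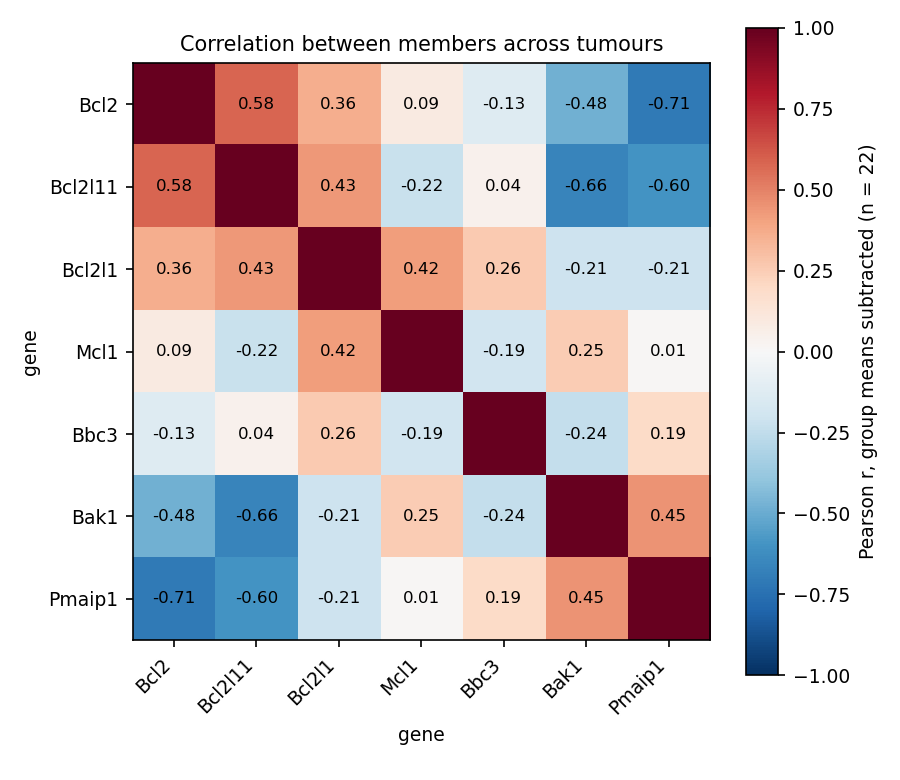
Pearson r between each pair of the 7 members over 22 tumours after subtraction of the regimen means, in colour from -1 (blue) to 1 (red). Bcl2 and Bcl2l11 are negative with Bak1 and Pmaip1 in all 4 combinations, from -0.48 to -0.71.

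**Figure D4:**
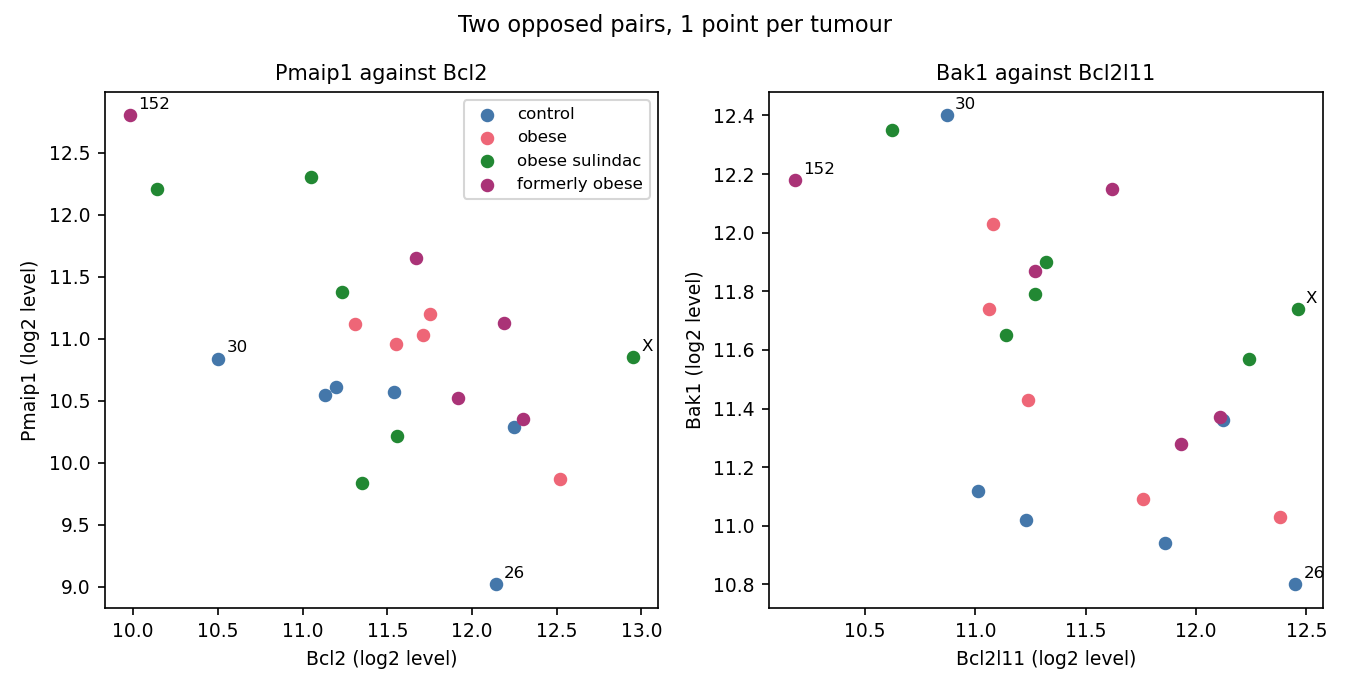
Log2 levels of Pmaip1 against Bcl2 (left) and of Bak1 against Bcl2l11 (right), with 1 point per tumour coloured by regimen and 4 tumours marked by mouse. Mouse_152 has the lowest Bcl2 (9.98) and the highest Pmaip1 (12.80), and the tumours of every regimen slope downward in both panels.

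Each of the 4 genes of these pairs varied with markers of some types of immune cell. A marker score is the mean log2 level of a list of markers in a tumour. Of 63 combinations of 7 members and 9 lists, 11 passed (adjusted p under 0.05). The share of all probe sets that varied as strongly with these scores was not computed. Whether the count, or any of these relations, is particular to this family is therefore not known. Bcl2l11 was lower in tumours with higher scores of T and NK cells (r = -0.77, permutation p = 8e-05, adjusted p = 0.00504, rho = -0.73), of B and plasma cells (r = -0.71, adjusted p = 0.0139, rho = -0.78) and of macrophages and monocytes (r = -0.65, adjusted p = 0.0339, rho = -0.57). It was also lower with a higher epithelial score (r = -0.60, adjusted p = 0.0386, rho = -0.57). In that score Krt20 ran from 8.74 to 14.58 and Cdx2 from 5.92 to 13.64, but Epcam only from 16.67 to 17.43. The score thus need not measure the amount of epithelium. Bcl2 was lower with higher scores of macrophages and monocytes (r = -0.75, adjusted p = 0.0139, rho = -0.73) and of T and NK cells (r = -0.57, adjusted p = 0.044, rho = -0.58).

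Pmaip1 and Bak1 were higher where those scores were higher. Pmaip1 had r = 0.62 with T and NK cells (rho = 0.64), 0.64 with B and plasma cells (rho = 0.57) and 0.64 with macrophages and monocytes (rho = 0.64), each with adjusted p = 0.0339. Bak1 had r = 0.61 with T and NK cells (adjusted p = 0.0339, rho = 0.62) and 0.57 with macrophages and monocytes (adjusted p = 0.0509, rho = 0.61). The neutrophil score did not pass with any of the 4 genes. Its r was -0.51 for Bcl2 (permutation test, adjusted p = 0.121), -0.13 for Bcl2l11, 0.10 for Pmaip1 and 0.16 for Bak1. The epithelial score went the same way as the immune scores for all 4 genes. Besides Bcl2l11, its r was -0.46 for Bcl2 (adjusted p = 0.108), 0.54 for Bak1 (adjusted p = 0.0952) and 0.47 for Pmaip1 (adjusted p = 0.104). For Pmaip1 its rho was 0.56, with adjusted p = 0.0485. Mcl1 stood apart, with r = 0.83 to the smooth muscle score (adjusted p = 0.0139, rho = 0.72) and r between -0.14 and 0.10 to the scores of T and NK cells, B and plasma cells, and macrophages and monocytes. Mouse_134, with the highest Mcl1 level, also had the highest smooth muscle score of the formerly obese tumours, 11.28, where the group mean was 9.41. Without this tumour the r of Mcl1 with that score was 0.57. Bcl2l1 and Bbc3 passed with 0 of the 9 lists.

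The adjusted calls depended on single tumours, while r itself changed little for some of these relations and more for others. Leaving out the 2 tumours farthest from the median of the member left 0 of the 11 past the threshold, with r of -0.70, -0.57, -0.43 and -0.72 for Bcl2l11 with T and NK cells, B and plasma cells, macrophages and monocytes, and epithelium. It left -0.51 and -0.38 for Bcl2 with macrophages and monocytes and with T and NK cells, and 0.68 for Mcl1 with smooth muscle. It left 0.53, 0.63 and 0.63 for Pmaip1 with T and NK cells, B and plasma cells, and macrophages and monocytes, and 0.49 for Bak1 with T and NK cells. Every sign stayed. Without Mouse_152 alone 2 of the 11 passed, Bcl2l11 with T and NK cells and with epithelium, and without Mouse_26, Mouse_140 or Mouse_30 3, 3 and 4 passed. The relation of Bcl2l11 to T and NK cells passed without any 1 of the 22 tumours, with r from -0.82 to -0.73 and adjusted p up to 0.0369.

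**Figure D5:**
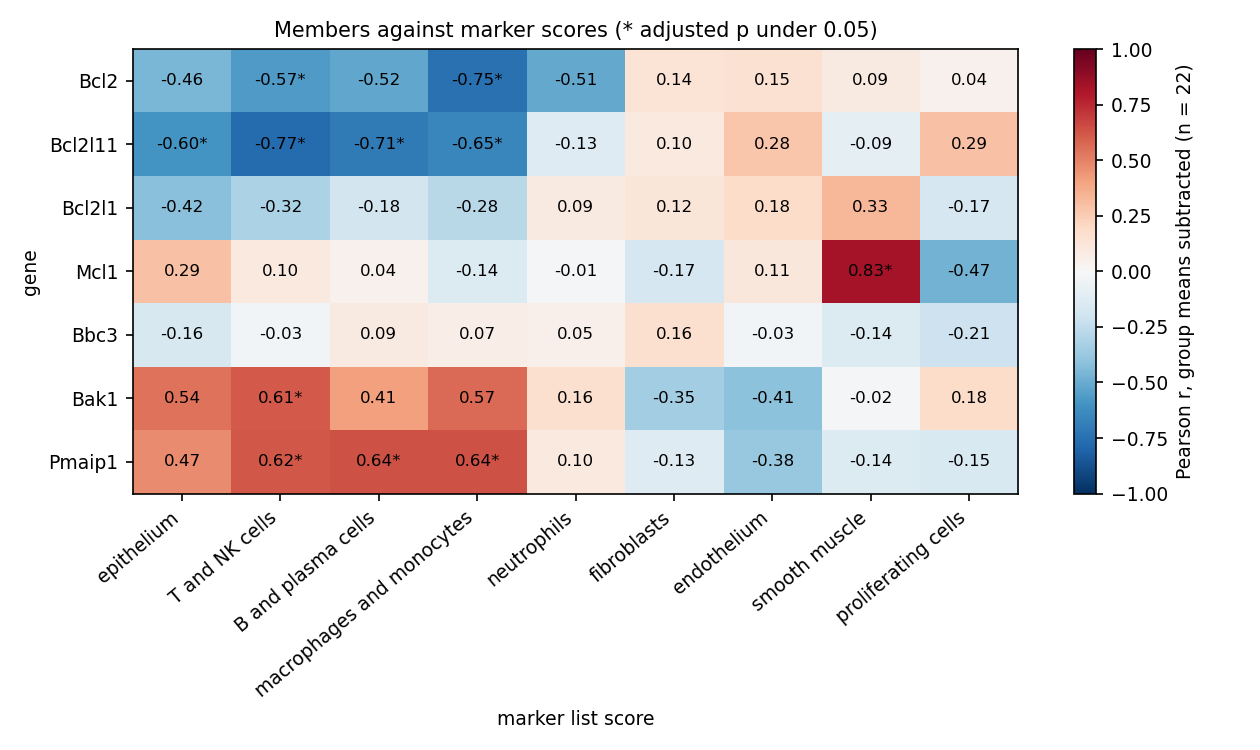
Pearson r between each of the 7 members (rows) and the score of each of 9 marker lists (columns) over 22 tumours after subtraction of the regimen means, with stars for adjusted p under 0.05. Bcl2 and Bcl2l11 are negative, and Bak1 and Pmaip1 positive, with epithelium, T and NK cells, B and plasma cells, and macrophages and monocytes. Mcl1 is at 0.83 with smooth muscle.

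The immune markers were measured above the low end of the array for some genes only. Of the 10 markers of T and NK cells 8 had a probe set, with Cd3e at 6.85 to 11.21 and Ncr1 at 4.09 to 4.96, and the score ran from 5.81 to 7.32 in control, 5.78 to 7.57 in obese, 6.29 to 7.95 in obese sulindac and 6.14 to 7.36 in formerly obese tumours. For B and plasma cells 8 of 9 were measured, with Cd79a at 3.74 to 10.33, and the score ran from 5.45 to 7.17, 6.12 to 7.92, 6.36 to 8.29 and 5.87 to 8.94 in the same order of regimens. For macrophages and monocytes 8 of 9 were measured, with Csf1r at 8.82 to 11.40, and the score ran from 9.37 to 10.66, 9.92 to 10.76, 9.57 to 11.03 and 9.50 to 10.80. Mouse_152 had the highest score of the formerly obese tumours in all 3 lists. When the score of T and NK cells was removed as well, 0 of the 21 pairs passed, with r = -0.55 for Bcl2 and Pmaip1 (adjusted p = 0.279) and -0.38 for Bak1 and Bcl2l11 (adjusted p = 0.574). With the macrophage score removed instead, 0 passed, with r = -0.45 (adjusted p = 0.44) and -0.47 (adjusted p = 0.406). Which cells of the tumours carry these RNAs was not tested.

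For each member the 3 genes with the most similar pattern over the 22 tumours were taken, by Pearson r after subtraction of the regimen means. Bcl2l11 was followed most closely by Tbx3, a T-box transcription factor (r = 0.94), Ldb1, a cofactor of LIM-domain factors (0.91), and Tmem150c (0.88). Bcl2 was followed by Megf9 (0.90), Psd3 (0.88) and Mdga2 (0.86). Bak1 was followed by Dtx3l, a ubiquitin ligase (0.89), Gbp2, a guanylate-binding protein (0.89), and Psmb8, a proteasome subunit (0.86). Pmaip1 was followed by Thnsl2 (0.90), Tnfrsf14, a receptor of the TNF family (0.87), and Naip2, a sensor of bacterial proteins (0.86). Mcl1 was followed by the smooth muscle genes Cnn1 (0.90) and Lmod1 (0.83), both in the smooth muscle list used above, and by Fxyd1 (0.86). Bcl2l1 was followed by Chn1 (0.83), Wwc2 (0.82) and Atxn10 (0.79), and Bbc3 less closely by Krt1 (0.73), Plxdc1 (0.73) and Limk1 (0.67).

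Of 11 further Bcl2 family genes, all measured, 0 passed in any of the 6 comparisons in limma, as 0 of all 22203 probe sets did. In obese against control tumours 7 had a higher mean and 4 a lower one, with a median difference of 0.20. Before adjustment 0 of the 11 had a limma p under 0.05 there (4.03% of all probe sets did), 2 of 11 did in formerly obese against obese tumours (5.69%), and 2 of 11 in obese sulindac against control tumours (6.63%). The guardians of the Bcl2a1 group, known from blood cells, had differences of 0.56 ± 0.35 for Bcl2a1a, 0.34 ± 0.35 for Bcl2a1b and 0.48 ± 0.35 for Bcl2a1d, and Bcl2l2, another guardian, had -0.23 ± 0.22. These 3 Bcl2a1 genes are near-identical copies, so their probe sets may not tell them apart. In obese sulindac against control tumours the differences were 0.96 ± 0.33 for Bcl2a1a (limma adjusted p = 0.6669, exact permutation p = 0.0325 before adjustment) and 0.76 ± 0.33 for Bcl2a1d. In formerly obese against obese tumours 3 of the 11 had a higher mean and 8 a lower one, with a median of -0.17. There Bok, a relative of the pore formers, differed by -0.79 ± 0.30 (limma adjusted p = 0.866, exact permutation p = 0.00794 before adjustment) and had groups that do not overlap, as 0.878% of all probe sets did, and Bid, the BH3-only link from death receptors, by -0.47 ± 0.21. The BH3-only genes Bad, Bik, Bmf and Hrk differed there by -0.34 ± 0.21, -0.47 ± 0.28, -0.21 ± 0.39 and -0.17 ± 0.18. With sulindac, against obese tumours, 6 were higher and 5 lower, with Bmf at 0.55 ± 0.37, Bik at -0.50 ± 0.27 and Bcl2l10 at 0.23 ± 0.14.

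Downstream of the membrane, 17 of 20 genes were measured and 0 passed in any comparison, as 0 of all 22203 probe sets did. In obese against control tumours 12 had a higher and 5 a lower mean, with a median difference of 0.04. Apaf1, the scaffold of the apoptosome, differed by 0.15 ± 0.32, Cycs, which encodes cytochrome c, by 0.23 ± 0.20, and the initiator caspase gene Casp9 by 0.19 ± 0.18. The caspase inhibitor genes Xiap and Birc3 differed by 0.04 ± 0.19 and 0.68 ± 0.46. Between obese sulindac and obese tumours 8 were higher and 9 lower, with Apaf1 at 0.46 ± 0.32 and the channel gene Vdac2 at 0.20 ± 0.12. In formerly obese against obese tumours 11 were higher and 6 lower, with Dffa, the inhibitor of the apoptotic nuclease, at -0.53 ± 0.31.

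Of the p53 pathway list 19 of 20 genes were measured and 0 passed, as 0 of all 22203 probe sets did. Bbc3 and Pmaip1 are themselves targets of p53. In obese against control tumours 6 had a higher and 13 a lower mean, with a median difference of -0.22. The cell cycle inhibitor gene Cdkn1a differed by -0.52 ± 0.25 (limma adjusted p = 0.9998, exact permutation p = 0.104 before adjustment) and Mdm2, which encodes the ligase that degrades p53, by -0.15 ± 0.18, while the stress gene Gadd45a differed by 0.73 ± 0.31. In obese sulindac against obese tumours 8 were higher and 11 lower, and Gadd45a differed by -1.10 ± 0.31 (limma adjusted p = 0.5795, exact permutation p = 0.00433 before adjustment), with groups that do not overlap, as for 0.676% of all probe sets. In formerly obese against obese tumours 9 were higher and 10 lower, with Btg2, an antiproliferative gene, at 0.89 ± 0.40. Trp53 was not analysed here.

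Of the death receptor genes 11 of 12 were measured and 0 passed, as 0 of all 22203 probe sets did. In obese against control tumours 8 had a higher and 3 a lower mean, and Cflar, which blocks the caspase, differed by 0.47 ± 0.24, Casp8 by 0.08 ± 0.22 and the receptor gene Fas by 0.06 ± 0.24. In obese sulindac against obese tumours 5 were higher and 6 lower, with Casp8 at -0.42 ± 0.22, and in formerly obese against obese tumours 4 were higher and 7 lower, with Cflar at -0.44 ± 0.25. Of 9 regulators that induce BH3-only genes all were measured and 0 passed, again as for all 22203 probe sets. Atf4, the stress factor upstream of Pmaip1, differed by 0.29 ± 0.17 in obese against control and by -0.33 ± 0.17 in obese sulindac against obese tumours. Foxo1, a factor that acts on Bcl2l11, differed by -0.24 ± 0.15 and -0.01 ± 0.15 in the same comparisons, and by 0.25 ± 0.15 in formerly obese against obese tumours.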

How the data were processed

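RNA of 22 colon tumours was hybridised to Clariom S arrays, per the labels. The deposited values are log2 levels of 22203 probe sets. Transcriptome Analysis Console 4.0 made them, per the submitters' processing notes. How they were normalized, and the log base, are not given in the sources. Base 2 was taken from their range, 3.34 to 19.49. Probe sets were named from the array annotation, which gave 19572 of them 1 gene symbol.

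A linear model with 1 mean per regimen was fitted to all probe sets in R 4.3.3 with limma 3.58.1 (lmFit, eBayes, two-sided, Benjamini-Hochberg, threshold 0.05), with no filter, and tested on simulated data. Exact permutation tests over mice were an alternative. Correlations used Python 3.11.15 and 100000 two-sided permutations of tumours within regimens. The 8 members and all lists were chosen with earlier results of these data known. Every member is described, and list genes were named from a fixed set plus the smallest p of each list in each main comparison. The genes most similar to a member were the 3 with the highest r. The planned difference between Bax and Bcl2 and the choice among several probe sets of a member could not be run, because Bax was not analysed here and each other member has 1 probe set. Alternatives were other normalizations, array weights, a robust prior, 2-group fits, a filter on dim probe sets and leaving out each tumour. Labels give no batch, and the number of arrays limits the precision.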

Additional observations from a re-analysis of the deposited data

Results flagged for a closer look

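Among 28 groups of 5 or 6 tumours (7 members in 4 regimens), 5 held a tumour whose level lay far from the others of its group by Dixon's criterion. Chance gives about 1 in 20 groups, and the levels of 1 tumour are not independent between genes. Bcl2 in the formerly obese Mouse_152 was at 9.98, and the nearest tumour of the group at 11.67. Bak1 in the control Mouse_30 was at 12.40, and the nearest at 11.36. Bbc3 in the control Mouse_17 was at 7.14, and the nearest at 6.32. Pmaip1 in the control Mouse_26 was at 9.02, and the nearest at 10.29. Pmaip1 in the obese Mouse_113 was at 9.87, and the nearest at 10.96. The Bak1 difference between obese sulindac and control tumours was 0.79 without Mouse_30, and the Pmaip1 difference between obese and control tumours was 0.26 without Mouse_26 and 0.76 without Mouse_113.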

How the results depend on the processing

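Over 750 alternative values of the member differences, 0 had an adjusted p under 0.05, the smallest being 0.421. With all tumours kept, 7 changed sign and 281 did not, the 7 all being differences smaller than their standard error. With array weights the Bbc3 difference became -0.13 in obese against control and 0.06 in formerly obese against obese tumours, and the Bcl2l11 difference 0.15 in formerly obese against obese, 0.03 in formerly obese against control and 0.12 in formerly obese against obese sulindac tumours. The Bcl2l11 difference in obese sulindac against obese tumours became -0.01 under quantile normalization and under subtraction of array medians. Leaving out 1 tumour changed the sign of 56 of 462 values. In obese against control tumours this was Bbc3 from -0.24 to 0.21 and Bcl2l11 from -0.31 to 0.09. In formerly obese against obese tumours this was Bbc3 from -0.23 to 0.21, Bcl2 from -0.33 to 0.25 and Bcl2l11 from -0.25 to 0.23. In obese sulindac against obese tumours this was Bbc3 from -0.08 to 0.36, Bcl2l1 from -0.04 to 0.17 and Bcl2l11 from -0.19 to 0.22. In formerly obese against control tumours this was Bbc3 from -0.12 to 0.14, Bcl2 from -0.04 to 0.56 and Bcl2l11 from -0.34 to 0.14. In obese sulindac against control tumours this was Bcl2 from -0.39 to 0.17 and Bcl2l11 from -0.27 to 0.10. In formerly obese against obese sulindac tumours this was Bak1 from -0.17 to 0.06, Bcl2 from -0.02 to 0.64, Bcl2l1 from -0.08 to 0.13, Bcl2l11 from -0.26 to 0.22, Mcl1 from -0.07 to 0.16 and Pmaip1 from -0.22 to 0.39. The cause was not tested.

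The count of probe sets past the threshold in limma stayed at 0 in the alternatives that keep all tumours. Leaving out 1 tumour gave 0 to 1 in formerly obese against control (1 without Mouse_152) and 0 to 1 in obese sulindac against obese tumours (1 without Mouse_96), and 0 in the others. The number of member pairs that passed was 2, and 5 on levels without subtraction of the regimen means, 0 with the score of T and NK cells removed, 0 with that of macrophages and monocytes removed, and 1 to 4 with 1 tumour left out (1 without Mouse_113, Mouse_129 or Mouse_152, and 4 without Mouse_96). The number of member and list combinations that passed was 11, and 0 without the 2 farthest tumours, and 2 to 14 with 1 tumour left out. The tumours left out singly, the removal of marker scores and the quantile normalization of correlations were chosen after seeing the data. No paired analysis was possible because the groups share no replicate numbers. The alternative probe sets and the comparison of Bax with Bcl2 were not run, since Bax was not analysed here and each other member has 1 probe set. With 5 or 6 tumours a group, standard errors of the member differences ran up to 0.49 log2 units.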
